A study of Mus musculus with 27 samples.

Results

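The H3K4me3 peak list of wild-type mouse embryonic stem cells (WT ESC) was compared with that of wild-type mouse embryonic fibroblasts (WT MEF). The WT ESC list held 19468 peaks and the WT MEF list 18017. Peaks of both lists that overlapped by at least 1 bp were merged, which gave 21841 regions. Of these, 7701 were found only in WT ESC (35.3%), 2455 only in WT MEF (11.2%) and 11685 in both (53.5%). They come from a series of 27 samples with 19 peak lists, which mapped H3K4me3, H3K27me3 and the H3K27 demethylase UTX by ChIP-seq (chromatin immunoprecipitation and sequencing) to ask how UTX takes part in reprogramming to pluripotency.

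The ESC were of the V6.5 strain, carried an intact Utx gene (Utx+/Y) and were grown in N2B27 medium with 2i/LIF. The MEF were of the V19-OSKM strain, also Utx+/Y, were grown in 2i/LIF and received no doxycycline (dox). V19-OSKM fibroblasts are made so that dox switches on the reprogramming factors Oct4, Sox2, Klf4 and c-Myc (OSKM). The strain therefore differs along with the cell type, and these cannot be told apart. Other lists of the series are used below as further readouts: Utx-/Y (Utx-KO) ESC, Utx-KO MEF, MEF of both genotypes with dox, and 2 clones of Utx-KO cells that reprogrammed improperly (aberrant iPS clones). Each state had 1 library per antibody, the iPS clones being 2 clones with 1 library each, so no difference between states has a replicate check and none was tested. Intervals are 95% intervals and cover counting error over regions only. Read depth was unknown. The labelled cell types were not checked against marker genes, because no gene positions of the build of the files (mm9) were used here.

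Trimethylation of lysine 4 on histone H3 is laid down around the start sites of active genes by SET1 and MLL methyltransferase complexes, many of which are recruited to CpG islands. Most promoters of housekeeping genes carry it in every cell type, while promoters and nearby elements of cell identity genes gain or lose it with the cell state. In ESC many silent developmental promoters carry it together with the Polycomb mark H3K27me3, a state called bivalent. UTX removes H3K27 methylation and is itself a subunit of MLL3 and MLL4 complexes, which act mainly at enhancers.

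The lists shared most of their strong peaks and parted among the weak ones. The deposited peak score has the form that MACS writes, -10 times the base 10 logarithm of a probability, and is the authors' own value. It depends on depth, so peaks were ranked within each list. Where fixed score cuts are used below, the same value can stand for different enrichment in different lists. Each list was cut into 10 score classes of equal size, class 1 holding the highest scores. In class 1 of WT ESC, 96.5% (95.5 to 97.2) of the peaks met a WT MEF peak. The share was 72.7% (70.7 to 74.6) in class 5 and 11.9% (10.6 to 13.4) in class 10. WT MEF peaks met a WT ESC peak in 96.7% (95.8 to 97.5) of cases in class 1 and in 59.9% (57.6 to 62.2) in class 10. Regions in both lists had a median WT ESC score of 1007, against 113 for the regions only in WT ESC. In WT MEF the medians were 424 for shared regions and 108 for the regions only in WT MEF.

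The Utx-KO lists, which differ in genotype and library but not in cell type, give the scale of disagreement within a cell type. All peaks in class 1 of WT ESC met a Utx-KO ESC peak, as did 99.9% of those in class 5 and 39.3% (37.2 to 41.5) of those in class 10. Utx-KO MEF met 96.3% (95.4 to 97.1), 75.9% (73.9 to 77.7) and 12.5% (11.1 to 14.1) of the same 3 classes, near the WT MEF shares. WT ESC peaks thus met the Utx-KO ESC list more often than either MEF list in all 10 classes. WT MEF peaks did not separate the cell types at the low end. In class 10, Utx-KO MEF met 58.9% (56.6 to 61.1) of them and WT ESC 59.9%. Peaks covered 46.1 Mb in WT ESC, 43.3 Mb in Utx-KO ESC, 23.6 Mb in WT MEF and 22.3 Mb in Utx-KO MEF. The part of this in the shares of WT ESC peaks and of WT MEF peaks was not tested.

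**Figure D1:**
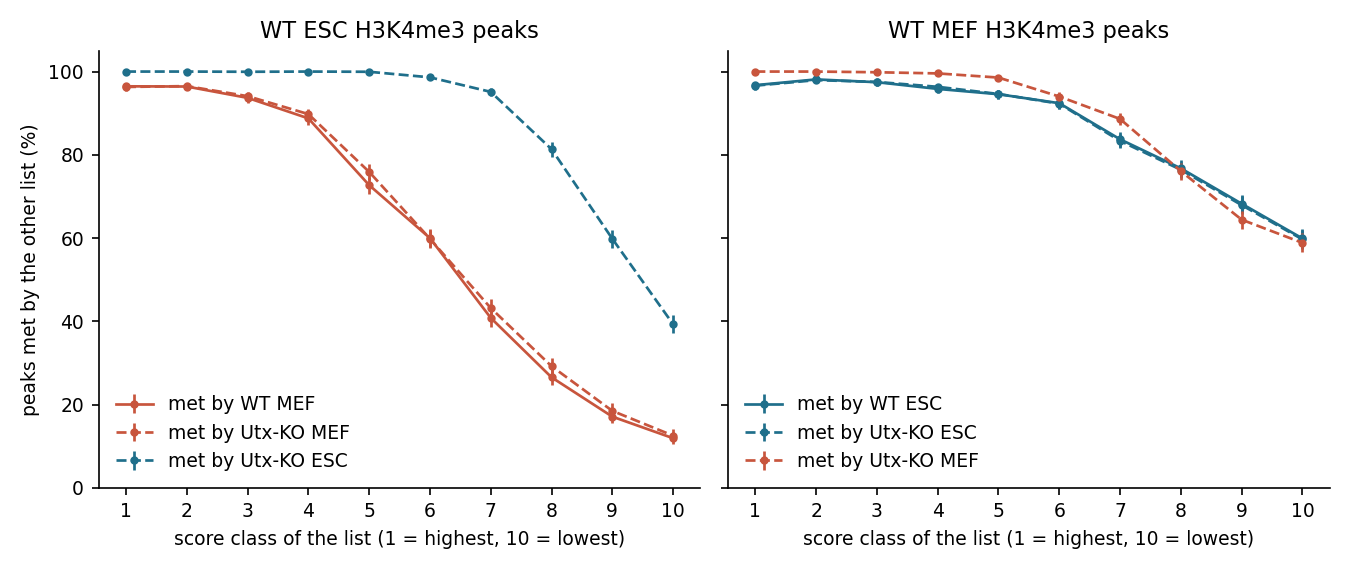
Share of WT ESC peaks (left) and WT MEF peaks (right) met by peaks of other H3K4me3 lists, by score class (class 1 holds the highest scores). Points are shares with 95% Wilson intervals. WT ESC peaks were met far more often by Utx-KO ESC than by either MEF list from class 5 on, while the curves for WT MEF peaks run together in the lowest 3 classes.

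Over whole lists the same order held. WT ESC and Utx-KO ESC shared 76.2% (75.6 to 76.8) of their merged regions, and WT MEF and Utx-KO MEF shared 70.3% (69.7 to 71.0). The shares between cell types were 53.5% (52.8 to 54.2) for WT ESC with WT MEF and 51.4% (50.7 to 52.0) for Utx-KO ESC with Utx-KO MEF. Regions only in ESC outnumbered those only in MEF in both genotypes. The log2 ratio of the counts was 1.65 (1.58 to 1.72) in WT cells and 1.22 (1.16 to 1.27) in Utx-KO cells. When the WT ESC list was shortened to the length of the WT MEF list, by score, it was 1.29.

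Called H3K4me3 peaks were wider in WT ESC than in WT MEF at the places both marked. WT ESC peaks had a median width of 2099 bp (quartiles 1478 and 2917) and WT MEF peaks of 1118 bp (727 and 1680). WT MEF peaks covered 23.6 Mb. In the 11685 shared regions the median covered length was 2566 bp in WT ESC and 1697 bp in WT MEF. The median log2 ratio of covered length, WT ESC over WT MEF, was 0.61 (interval 0.60 to 0.63). WT ESC was the wider in 89.7% (89.1 to 90.3) of shared regions. It was at least 2 times wider in 2944 of them (25.2%), and WT MEF at least 2 times wider in 66 (0.565%). Peak width went with score. Within WT ESC the median width was 4154 bp in score class 1 and 1041 bp in class 10. Shared regions had median scores of 1007 in WT ESC and 424 in WT MEF. The part of score and read depth in the width difference was not tested.

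The extra length in ESC flanked the fibroblast peak on one side or on both. In the 11606 shared regions with a single WT ESC peak, that peak reached at least 250 bp beyond the WT MEF peaks on both sides in 41.4% and on 1 side in 42.9%. In 69.5% the WT MEF peaks lay wholly inside the WT ESC peak. A single WT ESC peak often spanned a pair of WT MEF peaks, in 3028 regions or 25.9% of those shared. The gap between the paired WT MEF peaks was short, with a median of 161 bp (quartiles 76 and 312). Counted along the WT ESC peak from 0 to 1, the gap's median position was 0.499 (quartiles 0.382 and 0.620). Positions followed the genome and not the strand, so a median at the middle cannot show that gaps are central. No baseline was made for the quartiles. The reverse, 2 or more WT ESC peaks over 1 WT MEF peak, occurred 31 times.

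**Figure D2:**
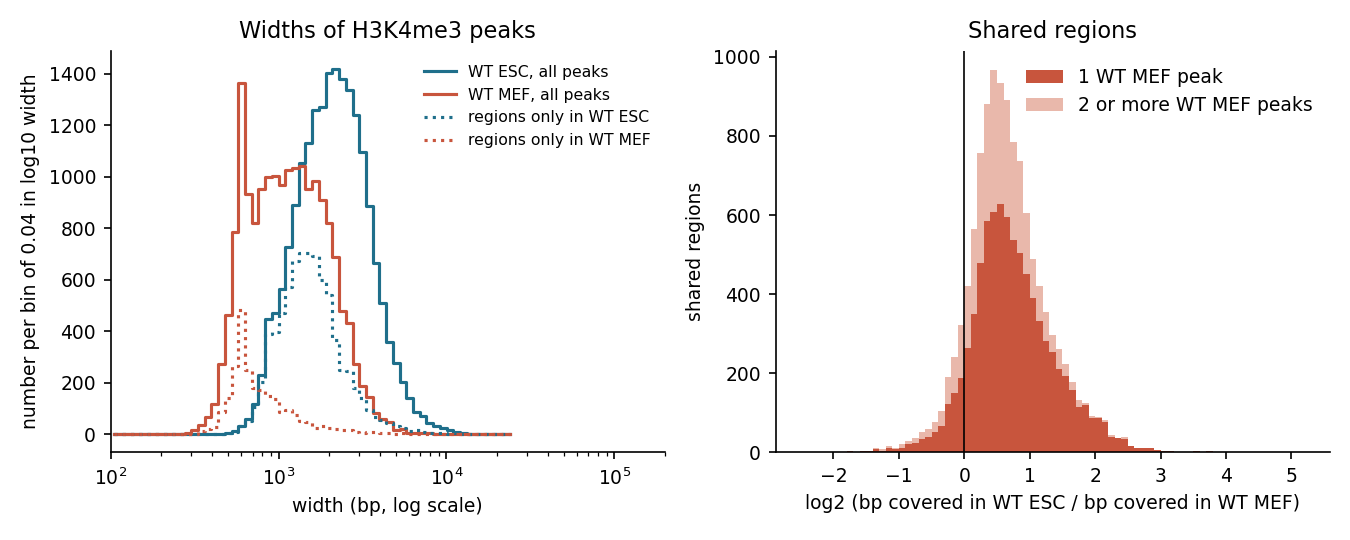
Left, widths of all WT ESC and WT MEF H3K4me3 peaks and of the regions found in 1 list only (log scale, number per bin). Right, log2 ratio of the length covered in WT ESC to that in WT MEF for 11685 shared regions, stacked by the number of WT MEF peaks. Most of the distribution lies above 0, with a median of 0.61, and the WT MEF list has a narrow spike of peaks between 550 and 650 bp.

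Width did not follow the cell type in every list. In the same shared regions, the median covered length was 2335 bp in Utx-KO ESC, 1980 bp and 2413 bp in the iPS clones and 1610 bp in Utx-KO fibroblasts. After dox it was 2482 bp in WT and 2596 bp in Utx-KO fibroblasts, near the WT ESC value, although these regions were drawn around WT ESC and WT MEF peaks. Both untreated MEF lists thus stood below the ESC lists and below both dox lists. In WT MEF 2103 peaks (11.7%) were from 550 to under 650 bp wide, where its widths have a sharp mode. WT ESC had 58 such peaks (0.298%) and iPS clone 1 had 2083 (8.91%). Among the regions found only in WT MEF, 704 (28.7%) had such a width. The part of these narrow peaks in the width difference was not tested.

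The shared regions with the largest excess in ESC were single broad ESC domains that held one short fibroblast peak. On chromosome 2 from 162877908 to 162895112, a domain of 17205 bp in WT ESC held 520 bp of H3K4me3 in WT MEF, a log2 ratio of 5.05. Lengths given for other lists at named regions, here and below, count only bases inside the region. Their peaks can reach beyond it. The region's H3K4me3 covered 14229 bp in Utx-KO ESC, 10279 and 15976 bp in the iPS clones, and 1284 bp in Utx-KO fibroblasts. With dox it covered 2359 bp in WT and 3702 bp in Utx-KO fibroblasts. It was broad in the ESC and iPS lists and short in the fibroblast lists. On chromosome 9 from 65476135 to 65487424, WT ESC had 11290 bp and WT MEF 819 bp (log2 ratio 3.79). There the other ESC and iPS lists had 4127 to 8587 bp and the other fibroblast lists 1047 to 3627 bp, with no overlap between these ranges. On chromosome 17 from 37110531 to 37120292 the ratio was 4.00, with 6565 bp in Utx-KO ESC, but the iPS clones had 866 and 2318 bp and the dox lists 1993 and 2025 bp, so iPS and fibroblast lengths overlapped there. Of the 5 regions with the largest ratio, 4 held a UTX peak of WT ESC, against 8.19% of all shared regions of at least 3000 bp. These are not of like width. The 5 measured 5995 to 17205 bp in WT ESC, and the median width of that class was 3731 bp. UTX was more frequent on wider shared regions, with 2.00% at 1000 to under 2000 bp.

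Regions wider in WT MEF reached smaller ratios. The largest was -2.26, on chromosome 1 from 93696814 to 93702078, with 1066 bp in WT ESC and 5096 bp in WT MEF. Utx-KO MEF had 2087 bp there, like the 2082 bp of Utx-KO ESC, so the difference was not seen in the Utx-KO pair. On chromosome 9 from 41387065 to 41396130 it was. WT ESC had 2145 bp and WT MEF 9066 bp, the widest peak of its list, Utx-KO MEF had 8144 bp, both dox lists the full 9066 bp, and Utx-KO ESC and iPS clone 1 none. On chromosome 14 from 22802203 to 22810262, WT MEF had 8020 bp and WT ESC 1892 bp of H3K4me3, and WT ESC also carried 5103 bp of H3K27me3 in that region.

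Among the regions found only in WT ESC, the 10 with the highest score were broad domains of 4878 to 18293 bp, and 9 of them had a score of 3100, a value at which scores pile up. Ties in score were broken by width, which favours broad regions among those tied. The breadth of the 10 is therefore not a separate result. All 10 had H3K4me3 in Utx-KO ESC and in both iPS clones. Utx-KO MEF had a peak in 1 of the 10, and with dox WT fibroblasts had one in 6 and Utx-KO fibroblasts in 2. Over all 7701 regions only in WT ESC, the shares were 71.4% in Utx-KO ESC, 62.6% and 81.6% in the clones and 10.5% in Utx-KO MEF. With dox they were 40.4% in WT and 28.9% in Utx-KO fibroblasts. Among the 524 of at least 3000 bp they were 97.3% in Utx-KO ESC, 81.3% and 92.4% in the clones and 13.0% in Utx-KO MEF. With dox these wide regions had 46.4% in WT and 31.7% in Utx-KO fibroblasts. The counts of the 10 were thus nearer to those of wide regions than to those of all. The widest, on chromosome 12 from 87807410 to 87825702, measured 18293 bp in WT ESC, 18158 bp in Utx-KO ESC and 11441 and 18293 bp in the iPS clones. It had no H3K4me3, H3K27me3 or UTX peak in any fibroblast list. The region on chromosome 8 from 44380534 to 44393711 showed the same pattern, with 13178 bp in WT ESC, 12438 bp in Utx-KO ESC, 8542 and 11769 bp in the clones and no peak in fibroblasts. The nearest WT MEF peak was 1625630 bp away. On chromosome 6 from 122655745 to 122666891, WT ESC had 11147 bp, Utx-KO ESC 9887 bp and the clones 4895 and 7728 bp. A WT MEF peak lay 2420 bp from it, so that locus was not empty in fibroblasts.

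Of the 10 highest-scoring regions only in WT ESC, 3 met an H3K27me3 peak of WT MEF. The share was 17.0% (10.8 to 25.9) over all 94 regions only in WT ESC with a score of at least 2000. On chromosome 3 from 34546800 to 34557220, H3K4me3 measured 10421 bp in WT ESC, 10397 bp in Utx-KO ESC and 8454 and 9642 bp in the clones. WT MEF had 6371 bp of H3K27me3 there and no H3K4me3, and Utx-KO MEF had 418 bp of H3K4me3. With dox, 3663 bp of H3K4me3 were found in WT and 4150 bp in Utx-KO fibroblasts. The region on chromosome 1 from 138841078 to 138850293 carried 9216 bp of H3K4me3 in WT ESC, 4581 bp of H3K27me3 in WT MEF and 5963 bp of H3K27me3 in Utx-KO MEF. With dox it had 4549 bp of H3K4me3 in WT and 3412 bp in Utx-KO fibroblasts. On chromosome 8 from 91563219 to 91571838, WT ESC had 8620 bp of H3K4me3, and WT MEF had 3725 bp of H3K27me3 without H3K4me3. With dox the WT fibroblasts had 7141 bp of H3K4me3 there, and Utx-KO fibroblasts had none and 7392 bp of H3K27me3. None of these 3 regions had an H3K27me3 peak in WT ESC.

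UTX of WT ESC was found in 5 of the 10 regions, near the 43.6% of all regions only in WT ESC with a score of at least 2000. Besides those on chromosomes 3 and 1 just described, they were chr15:100099920-100104797, chr2:165632300-165641199 and chr17:66827160-66836019. In these last 3, H3K4me3 covered 4878, 8900 and 8860 bp in WT ESC and 3253, 6405 and 8400 bp in Utx-KO ESC. Untreated fibroblasts and Utx-KO fibroblasts with dox had none, and WT fibroblasts with dox had 1452, 3674 and 2000 bp. The regions with UTX on chromosomes 3 and 1 had H3K4me3 with dox in both genotypes. The region at chr8:91563219-91571838, without a UTX peak, had it in WT fibroblasts only. On chromosome 14 from 22299249 to 22311370, WT ESC had 12122 bp, Utx-KO ESC 10921 bp and the clones 4259 and 8900 bp, with no UTX and no fibroblast peak inside and a WT MEF peak 6698 bp away. The region on chromosome 15 from 25680622 to 25692332, named for its width of 11711 bp, had a lower score of 2015 and was also absent from all fibroblast lists.

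The 10 highest-scoring regions found only in WT MEF measured 2509 to 7154 bp, with scores of 2104 to 3100. Few of them tied in score, so their widths cannot be set against those of the 10 WT ESC regions. All 10 had H3K4me3 in Utx-KO MEF with and without dox, 9 in dox-treated WT MEF, 2 in Utx-KO ESC, and 5 and 8 in iPS clones 1 and 2. Over all 2455 regions only in WT MEF, the shares were 56.5% in Utx-KO MEF and, with dox, 74.9% in Utx-KO and 69.0% in WT fibroblasts. They were 14.5% in Utx-KO ESC and 25.1% and 45.6% in the clones. Among the 41 of at least 3000 bp they were 100% in Utx-KO MEF and, with dox, 95.1% in Utx-KO and 82.9% in WT fibroblasts. These wide regions had 19.5% in Utx-KO ESC and 48.8% and 63.4% in the clones, so the counts of the 10 were near those of wide regions. The region on chromosome 1 from 164147738 to 164152861 had 5124 bp in WT MEF and 5075 bp in Utx-KO MEF. After dox, WT fibroblasts had 3862 bp and Utx-KO fibroblasts 5124 bp. It was empty in both ESC lists and both clones. The region on chromosome 1 from 45368502 to 45373079 had 4578 bp in WT MEF. Utx-KO fibroblasts had 4575 bp without and 4578 bp with dox. There was no H3K4me3 peak in dox-treated WT MEF, ESC or iPS clones. Inside the region on chromosome 11 from 86395772 to 86400425, all 4 fibroblast lists had 4114 to 4654 bp. The clones had 2381 and 2987 bp there although neither ESC list had a peak. Peaks of both dox lists and both clones reached beyond the region. The widest, on chromosome 1 from 165237445 to 165244598, had 7154 bp in WT MEF and 5822 bp in Utx-KO MEF. WT ESC had 2475 bp of H3K27me3 in place of H3K4me3, and Utx-KO ESC had H3K27me3 over all 7154 bp.

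H3K27me3 of Utx-KO ESC, a list of 36231 peaks, lay on 5 of these 10 fibroblast regions and on none of the 10 from ESC. Besides the widest, they were chromosome 7 from 117770216 to 117774667 with 4414 of 4452 bp, chromosome 9 from 117157621 to 117163182 with 3846 of 5562 bp, chromosome 18 from 52685363 to 52689255 with 2039 of 3893 bp, and chromosome 6 from 4455675 to 4460935 with 953 of 5261 bp. The regions on chromosomes 7 and 18 were also the only 2 of the 10 with H3K4me3 in Utx-KO ESC, of 1983 and 1210 bp. Over all regions found only in WT MEF, Utx-KO ESC had H3K27me3 at 36.6% (34.7 to 38.5), against 29.6% (28.6 to 30.7) of those only in WT ESC and 20.9% (20.1 to 21.6) of the shared ones. At widths of 1000 to under 2000 bp the shares were 47.0%, 32.7% and 37.0%. There regions only in WT MEF were still above shared ones, by 10.0 points (4.89 to 15.2), while regions only in WT ESC were below them, at -4.26 points (-6.62 to -1.92). At 3000 bp or more the share was 63.4% (48.1 to 76.4) of the 41 regions only in WT MEF. It was 17.0% (14.0 to 20.4) only in WT ESC and 12.3% (11.4 to 13.3) shared. The 5 of 10 named fibroblast regions were thus not above the share of wide regions only in WT MEF. The broad fibroblast region on chromosome 11 from 3090278 to 3096996 was unlike the rest. It measured 6719 bp at a score of only 298, had 2822 bp in Utx-KO MEF, and was empty in both dox lists.

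**Figure D3:**
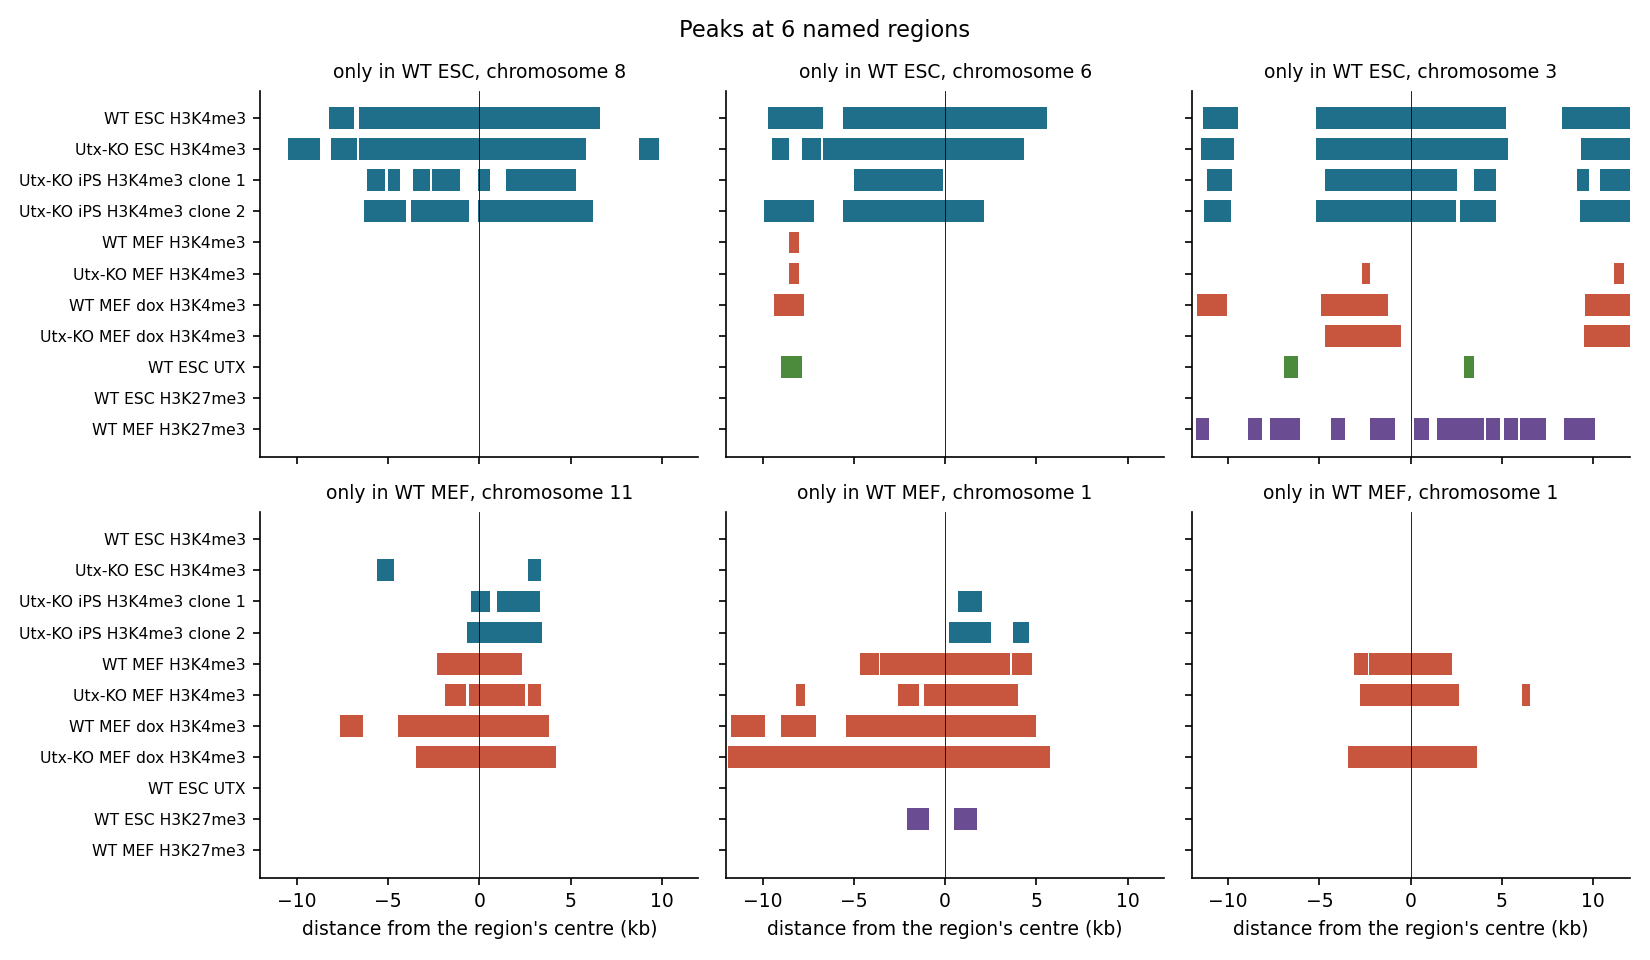
Peaks of 11 lists at 6 named regions, 3 found only in WT ESC (top) and 3 only in WT MEF (bottom), drawn by distance from the region's centre in kb. Blue bars are H3K4me3 in ESC and iPS lists, red bars H3K4me3 in fibroblast lists, green bars UTX and purple bars H3K27me3. The regions were chosen after their values were seen. The ESC domains on chromosomes 8 and 6 have no fibroblast peak inside them, and that on chromosome 3 has fibroblast H3K27me3 along most of its length.

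Regions found in 1 WT list recurred in the Utx-KO list of the same cell type more often where the score was high. Of the 7701 regions only in WT ESC, 4763 (61.8%, 60.8 to 62.9) were marked in Utx-KO ESC and not in Utx-KO MEF. Of the 2455 only in WT MEF, 1122 (45.7%, 43.7 to 47.7) were marked in Utx-KO MEF and not in Utx-KO ESC. For WT ESC regions the share was 42.8% (41.2 to 44.5) at scores under 100, 75.3% (73.6 to 76.8) from 100 to under 300, 79.8% (77.4 to 82.0) from 300 to under 1000 and 82.8% (78.0 to 86.7) among the 285 at 1000 or more. For WT MEF regions the shares in the same 4 classes were 34.5% (31.7 to 37.3), 49.2% (46.2 to 52.2), 73.0% (67.1 to 78.1) and 84.1% (70.6 to 92.1), the last over 44 regions. Opposite patterns were rare. Only 66 of the regions found in WT ESC alone (0.857%) were in Utx-KO MEF and missing in Utx-KO ESC, and 89 of those in WT MEF alone (3.63%) were in Utx-KO ESC and missing in Utx-KO MEF.

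Across the 6 other H3K4me3 lists, 8 chosen patterns were counted, of which the most frequent among WT ESC regions was an ESC-type one. In 1527 regions (19.8%, 19.0 to 20.7) H3K4me3 was present in Utx-KO ESC and both iPS clones and absent from the other 3 fibroblast lists. A further 1103 (14.3%, 13.6 to 15.1) were in Utx-KO ESC, both clones and both dox lists and were missing in Utx-KO MEF, and so were absent from untreated fibroblasts of both genotypes. In 836 regions (10.9%, 10.2 to 11.6), with a median score of only 62.9, none of the other 6 lists had a peak. Among WT MEF regions, 344 (14.0%, 12.7 to 15.4) were in all other fibroblast lists and in neither Utx-KO ESC nor a clone. In 304 (12.4%, 11.1 to 13.7), with a median width of 594 bp, none of the 6 had a peak.

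With dox, WT fibroblasts had H3K4me3 at 40.4% (39.3 to 41.5) of the regions found only in WT ESC and at 69.0% (67.1 to 70.8) of those found only in WT MEF. In Utx-KO fibroblasts the shares were 28.9% (27.9 to 29.9) and 74.9% (73.2 to 76.6). Of the regions only in WT ESC, 1069 were marked with dox in WT and not in Utx-KO cells, and 182 the other way round. Of those only in WT MEF, 203 were marked in WT and not in Utx-KO cells with dox and 350 the other way round. Among shared regions these counts were 61 and 29. The dox list held 19689 peaks in WT and 16157 in Utx-KO fibroblasts, each from 1 library. The part of list length in these counts was not tested. When only WT ESC and WT MEF peaks with a score of at least 100 were used, the WT dox shares were 56.3% and 82.0%.

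**Figure D4:**
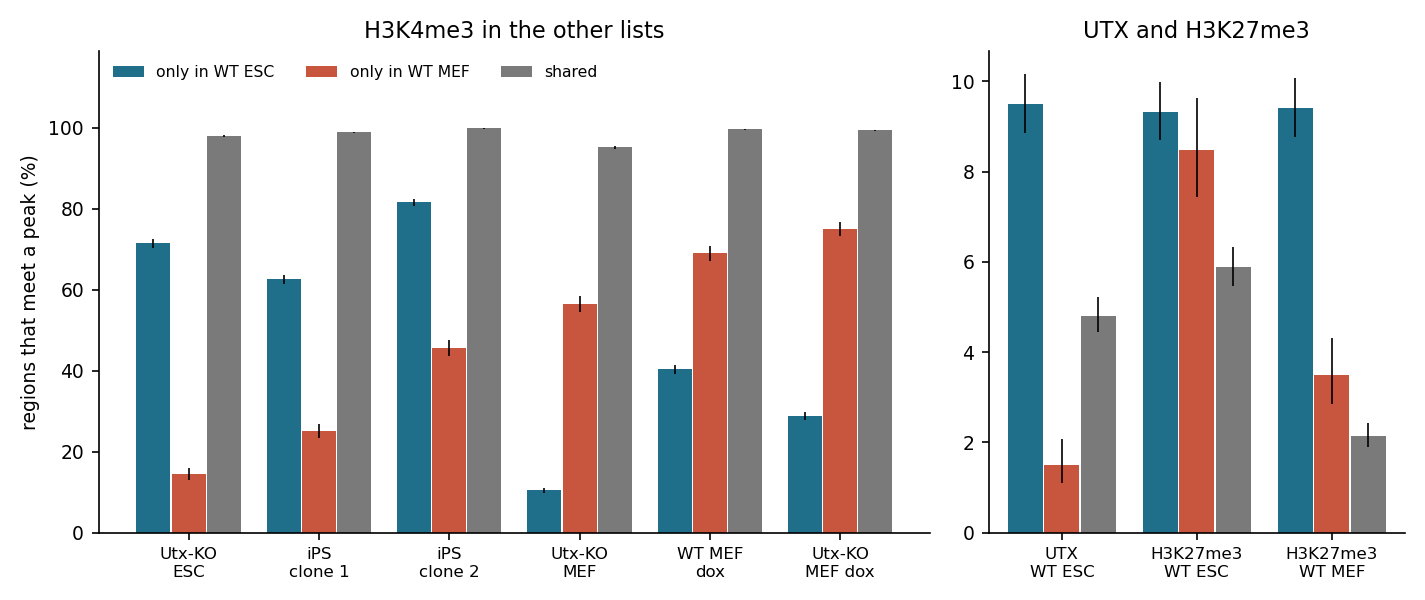
Share of regions found only in WT ESC, only in WT MEF and in both that meet a peak of the other 6 H3K4me3 lists (left) and of UTX and H3K27me3 lists of WT cells (right). Bars are shares with 95% Wilson intervals over 7701, 2455 and 11685 regions. Shared regions are marked in at least 95.2% of cases in each other H3K4me3 list. The regions of 1 list follow the cell type, and WT MEF H3K27me3 and WT ESC UTX are most frequent at WT ESC regions.

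UTX peaks of WT ESC lay more often on H3K4me3 that fibroblasts lacked than on shared H3K4me3. They were met by 731 of the 7701 regions only in WT ESC (9.49%, 8.86 to 10.2), by 562 of the 11685 shared regions (4.81%, 4.44 to 5.21) and by 37 of the 2455 only in WT MEF (1.51%, 1.10 to 2.07). The shared regions are wider, so the classes were also compared at like width. Among regions of at least 3000 bp, with median widths of 3727 and 3731 bp, the share was 31.1% (27.3 to 35.2) in the 524 only in WT ESC and 8.19% (7.42 to 9.03) in the 4446 shared. The difference was 22.9 percentage points (19.0 to 27.1). From 1000 to under 2000 bp it was 5.22 points (4.26 to 6.13), with shares of 7.21% and 2.00%.

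The same held at like score. At WT ESC scores of 2000 or more, 41 of 94 regions only in WT ESC (43.6%, 34.0 to 53.7) and 218 of 2600 shared regions (8.38%, 7.38 to 9.51) met a UTX peak. These regions of ESC alone were the wider ones, with medians of 5500 and 3862 bp. From 100 to under 300 the shares were 9.04% (8.04 to 10.2) and 1.94% (1.38 to 2.73), at median widths of 1648 and 1667 bp. UTX and H3K27me3 of WT ESC met on only 5 of the 7701 regions only in WT ESC (0.065%). The share was like that of shared regions, with 7 of 11685 (0.060%). In WT MEF, whose UTX list has 372 peaks, no region found only in WT ESC met one, against 16 of those only in WT MEF and 22 of the shared ones. Most of these 16 also met an H3K27me3 peak of WT MEF and are described among the other observations below.

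H3K27me3 of fibroblasts also favoured the regions that fibroblasts lacked. A WT MEF H3K27me3 peak was met by 724 of the regions only in WT ESC (9.40%, 8.77 to 10.1), by 86 of those only in WT MEF (3.50%, 2.85 to 4.31) and by 251 of the shared ones (2.15%, 1.90 to 2.43). Utx-KO MEF gave 8.88% (8.27 to 9.54), 2.53% (1.98 to 3.22) and 2.32% (2.06 to 2.61). Both MEF lists together marked 412 regions of WT ESC alone, and 996 (12.9%) were marked in at least 1 of them. The excess over shared regions was 5.13 percentage points (4.00 to 6.20) at widths of 1000 to under 2000 bp and 12.3 points (9.58 to 15.6) at 3000 bp or more. Under 1000 bp the share was 3.22% only in WT ESC and 4.62% shared, a difference of -1.40 points (-9.54 to 1.85). In that width class regions only in WT ESC did not exceed those only in WT MEF either, with 3.22% and 3.69% (-0.47 points, -1.75 to 0.92), and it holds 1923 of the 2455 regions only in WT MEF. At scores under 100 the excess over shared regions was not detectable, at 0.25 points (-2.01 to 1.95). Of all 4760 WT MEF H3K27me3 peaks, 918 (19.3%, 18.2 to 20.4) lay on regions with H3K4me3 only in WT ESC, and 291 (6.11%, 5.47 to 6.83) on shared regions.

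Of the 724 regions, 283 also carried H3K27me3 in WT ESC and 441 did not. The former had peaks of both marks in ESC, as bivalent regions do, and H3K27me3 alone of these marks in MEF. The latter had H3K4me3 alone in ESC and H3K27me3 alone in MEF. Another 435 regions only in WT ESC had H3K27me3 in ESC and neither mark in MEF.

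Over all widths, H3K27me3 of WT ESC itself set the classes apart less. It was met by 9.32% (8.69 to 9.99) of the regions only in WT ESC, 8.47% (7.43 to 9.64) of those only in WT MEF and 5.89% (5.48 to 6.33) of the shared ones. At widths of 1000 to under 2000 bp the shares were 10.3% (9.48 to 11.2), 11.9% (9.17 to 15.4) and 10.0% (8.88 to 11.3), and the intervals of the 3 differences all included 0. From 2000 to under 3000 bp the shares were 11.7%, 19.4% and 5.35%. Regions only in WT ESC stood 6.30 points (4.54 to 8.26) above shared ones there, and those only in WT MEF 14.1 points (6.57 to 24.7). At 3000 bp or more, 9 of the 41 regions only in WT MEF (22.0%, 12.0 to 36.7) carried H3K27me3 in WT ESC, against 4.23% (3.68 to 4.86) of the shared regions. Regions only in WT ESC had 6.11% there, 1.88 points (0.02 to 4.33) above shared ones. At like WT ESC score the order of regions only in WT ESC and shared regions turned over among the weaker regions. At scores under 100 the shares were 6.12% only in WT ESC and 15.6% shared, a difference of -9.44 points (-12.8 to -6.50). From 100 to under 300 they were 12.5% and 16.4%, a difference of -3.93 points (-6.13 to -1.80). From 300 to under 1000 they were 12.3% and 7.70%, a difference of 4.61 points (2.63 to 6.78). In the WT ESC H3K27me3 list 17.6% of the peaks had a score of 100 or more, against 89.7% in the WT MEF list, and the part of this in the shares was not tested.

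**Figure D5:**
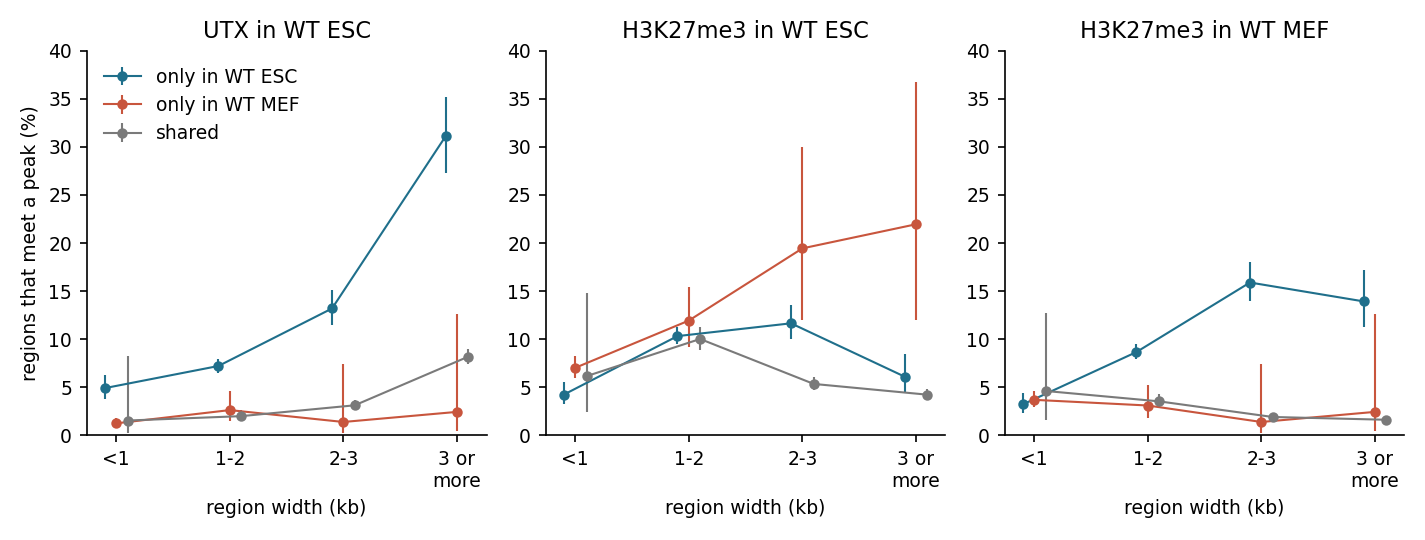
Share of regions that meet a UTX peak of WT ESC (left), an H3K27me3 peak of WT ESC (middle) and an H3K27me3 peak of WT MEF (right), by region width in kb, for regions only in WT ESC, only in WT MEF and in both. Points are shares with 95% Wilson intervals. UTX on regions of WT ESC alone goes from 4.91% under 1 kb to 31.1% at 3 kb or more, and the intervals of WT MEF regions are wide where regions are few.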

How the data were processed

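Per the submitters' processing notes, CASAVA 1.8.2, Bowtie 0.12.5, MACS 1.4.1 and build mm9 were used; which step each served, with what settings and control, is not given in the sources used here. Peak lists of 19 samples, as the authors deposited them with positions and a score, were used. The 8 whole-cell extracts were not analysed here. Peaks on numbered chromosomes, X and Y were kept, in 1-based positions. Regions link overlapping peaks of both lists. Covered length counts bases inside the region. The log2 ratio is that of (count + 1), with an exact Clopper-Pearson interval. Shares have Wilson intervals and differences of shares Newcombe intervals, which treat regions as independent. Named regions are the 10 highest-scoring (ties by width) and the 5 widest of each 1-list class, and the 5 shared regions with the largest width ratio each way and at least 2000 bp in the wider list; the text gives a selection. The regions, lists and tests were chosen with earlier results of these data known. The gene and promoter tables given are of build GRCm38, so no region was given a gene or a sequence, and the gene lists of the design were not used. The overlap code recovered 10 of 10 simulated pairs of lists and was checked against bedtools 2.31.1, which gave the same 11767 WT ESC peaks that met WT MEF. Computations ran in Python 3.11.15 with pandas 2.3.3, numpy 2.4.6 and scipy 1.17.1, and plots in matplotlib 3.10.9. Alternatives were a score of at least 100, a 50% overlap, equal list lengths, autosomes, and joining peaks at most 1000 bp apart; 3 more were added after the data were seen.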

Additional observations from a re-analysis of the deposited data

How the results depend on the processing

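No paired analysis was possible because each state had 1 library per antibody. Over 8 alternatives, 71 of 104 values stayed within the interval of the reported value, 33 moved, and neither log2 ratio changed sign under any of them. Some of the 71 could not move. Leaving out 1-list regions near the other list did not touch shared regions. Leaving out regions with H3K4me3, H3K27me3 and UTX peaks together in WT MEF touched only regions found only in WT MEF. Read depth is unknown and limits the weak peaks most. The log2 ratio of regions only in WT ESC to only in WT MEF was 1.41 at a score of at least 100, 1.48 with an overlap of 50%, 1.29 with equal list lengths, 1.99 with peaks joined, 3.48 at widths of 1000 to under 2000 bp and 1.96 for regions over 2500 bp from the other list; these last 2 settings were chosen after seeing the data. The median log2 width ratio became 0.63 at that score, 0.63 with an overlap of 50% and 0.57 with peaks joined. H3K27me3 in WT ESC at regions of WT ESC alone was 12.1% at a score of at least 100, 10.2% with equal lengths and 10.3% in the width band. At regions of WT MEF alone it was 11.9% at that score, 6.66% with peaks joined, 11.9% in the band and 6.65% away from the other list, and at shared regions 4.97% at that score and 10.0% in the band. H3K27me3 in WT MEF at WT ESC regions was 12.6% at that score, 10.5% with equal lengths and 8.66% in the band. UTX was 7.21% at WT ESC regions and 2.00% at shared regions in the band. The WT ESC pattern in the Utx-KO pair was 71.7% at that score and 68.0% with equal lengths, and the WT MEF pattern 41.9% with an overlap of 50%, 65.9% in the band and 48.0% away from the other list. H3K4me3 with dox at WT ESC regions was 56.3% at that score and 43.9% with equal lengths, and at WT MEF regions 82.0% at that score, 72.3% with an overlap of 50% and 84.7% in the band. The causes of these shifts were not tested.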

Other observations

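Some regions of 1 class stood in long rows along a chromosome. Regions only in WT ESC formed 4282 runs, of which 2522 were single regions and 205 held 5 or more. Regions only in WT MEF formed 1767 runs, of which 1335 were single and 27 held 5 or more. The runs named here were chosen after their values were seen. The longest runs of regions found only in WT ESC, with no WT MEF or shared region between them, held 21 regions on chromosome 12 from 17898092 to 20078754, 20 on chromosome 4 from 145681287 to 146687809 and 20 on chromosome 13 from 65411869 to 66909459. Utx-KO ESC had H3K4me3 at 19, 18 and 17 of them, and Utx-KO MEF at 1, 0 and 0. H3K27me3 was at none of them in WT ESC or WT MEF. A run of 13 on chromosome 14 from 3048816 to 8561499 was different, with 3 of 13 regions in Utx-KO ESC, all 13 in iPS clone 2 and 8 in WT MEF with dox. On chromosome 8 from 12384484 to 12546061, 4 of the 13 regions in a run carried H3K27me3 in WT MEF.

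Among regions found only in WT MEF, a run of 12 lay on chromosome 11 from 96153231 to 96176310. After dox all 12 were marked in WT and 9 in Utx-KO fibroblasts. Without dox Utx-KO fibroblasts had 5 and Utx-KO ESC 1, and 8 of the 12 carried H3K27me3 in WT ESC. A run of 8 on chromosome 6 from 4406640 to 4464584 included the region with a score of 2180 at 4455675 to 4460935. It was marked at 6 sites in untreated and 7 in dox-treated Utx-KO fibroblasts, at 2 in dox-treated WT fibroblasts and at none in either ESC list. At the start of chromosome 9, from 2999842 to 3036762, another 12 regions in a row were found only in WT MEF, all 12 also in Utx-KO MEF, and 6 of them met H3K27me3 and 8 met UTX peaks of WT MEF. In all, 10 regions had H3K4me3, H3K27me3 and UTX peaks together in WT MEF, all of them absent from the WT ESC H3K4me3 list. They lay on chromosomes 2, 6 and 9, and without them the log2 ratio of the classes was 1.65.

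Chromosomes differed in how far ESC regions outnumbered MEF regions. The log2 ratio of regions only in WT ESC to those only in WT MEF was above 0 on all 20 chromosomes other than Y, with a median of 1.68. It was highest on chromosome 17 at 2.40 (2.04 to 2.78) and lowest on chromosome 3 at 0.62 (0.35 to 0.89). The Utx-KO pair, made of other libraries, also had its highest value on chromosome 17 (2.07) and its lowest on chromosome 3 (0.29). Other chromosomes changed place, such as chromosome 19, which ranked 19 of 20 in WT cells (1.23) and 5 in Utx-KO cells (1.52), chromosome 11 (ranks 14 and 4) and chromosome 13 (ranks 9 and 17). Chromosome 3 had 876 WT ESC and 970 WT MEF peaks, and WT MEF had more peaks only there and on chromosomes 19 and Y.

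Regions found only in WT MEF lay closer to the other list than those found only in WT ESC. Of the former, 376 (15.3%) were within 1000 bp of a WT ESC peak, and of the latter 206 (2.67%) were within 1000 bp of a WT MEF peak. The median distances were 18178 bp and 29830 bp.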
